A study of Mus musculus with 6 samples.

Results

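The vomeronasal type 1 receptor genes of the mouse, whose symbols are Vmn1r followed by a number, were followed in the embryonic brain. The members were all genes of the count table with a symbol of this form, with Vmn1r90 left out. They were 207 of the 53801 genes of the table, under 206 symbols, since Vmn1r216 names 2 genes. A gene is called counted here when at least 1 sequencing read was assigned to it in at least 1 embryo.

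Polyadenylated RNA of the whole brain was sequenced from 6 mouse embryos of the C57BL/6 strain at E16.5, late in gestation. In 3 embryos both copies of Bahd1 were knocked out (Bahd1-KO), and 3 embryos were wild type (Bahd1-WT). Values per embryo are given in the order of replicates 1, 2 and 3 of each genotype. BAHD1 is a scaffold protein of complexes that form repressive chromatin, and the comparison asked whether its loss changed transcription before birth. Bahd1 was missing from the whole animal, the labels name neither litter nor sex, and each value is that of the mixed cells of 1 brain.

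Type 1 vomeronasal receptors are G protein-coupled receptors of sensory neurons in the vomeronasal organ, an organ of the nasal cavity outside the brain that detects pheromones. Each of these neurons transcribes one receptor gene from one allele, and the other genes of the family stay silent under repressive chromatin. The genes stand in dense clusters of close paralogs, each with its coding sequence in a single exon.

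The 6 libraries held 61.7 to 91.8 in units of 1e6 counts, so that a count of 0 allows up to 0.0327 to 0.0486 CPM (counts per 1e6 counts of the embryo) at a limit of 3 counts. This limit covers counting error only. Bahd1 itself, the targeted gene, had 2, 10 and 6 counts among Bahd1-KO and 1971, 3102 and 3470 among Bahd1-WT embryos, a log2 fold change of -8.40 (SE 0.606, adjusted p = 0.0462, edgeR with Benjamini-Hochberg adjustment). Bahd1-KO replicate 3 stood apart. Protein-coding genes took 53.5% of its counts against 97.8 to 98.4% in the other 5 embryos. The summed level of all 8 listed markers of brain neurons was 340 CPM in it against 6503 to 7169 CPM. That of all 6 listed lung markers was 747 CPM in it. The same sum was 12.4 CPM in Bahd1-KO replicate 2, 0.243 CPM in Bahd1-KO replicate 1 and 0.327 to 0.526 CPM in Bahd1-WT. The main values are therefore given with and without Bahd1-KO replicate 3.

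Almost the whole receptor family lay at or near 0. Of 207 members, 40 (19.3%) were counted and 167 (80.7%) had no count in any of the 6 embryos, whereas 84.9% of protein-coding genes and 62.7% of all genes in the table were counted. The family collected 326 counts in all, 148 in Bahd1-KO against 178 in Bahd1-WT, and 175 of them (53.7%) fell on Vmn1r4. Of the 40 counted members, 15 had a single count over all embryos, 20 had 2 to 9 and 5 had 10 or more. Counts were found in 1 embryo only for 17 members and in 2 to 5 embryos for 21. Vmn1r4 and Vmn1r13 were counted in all 6 embryos.

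**Figure D1:**
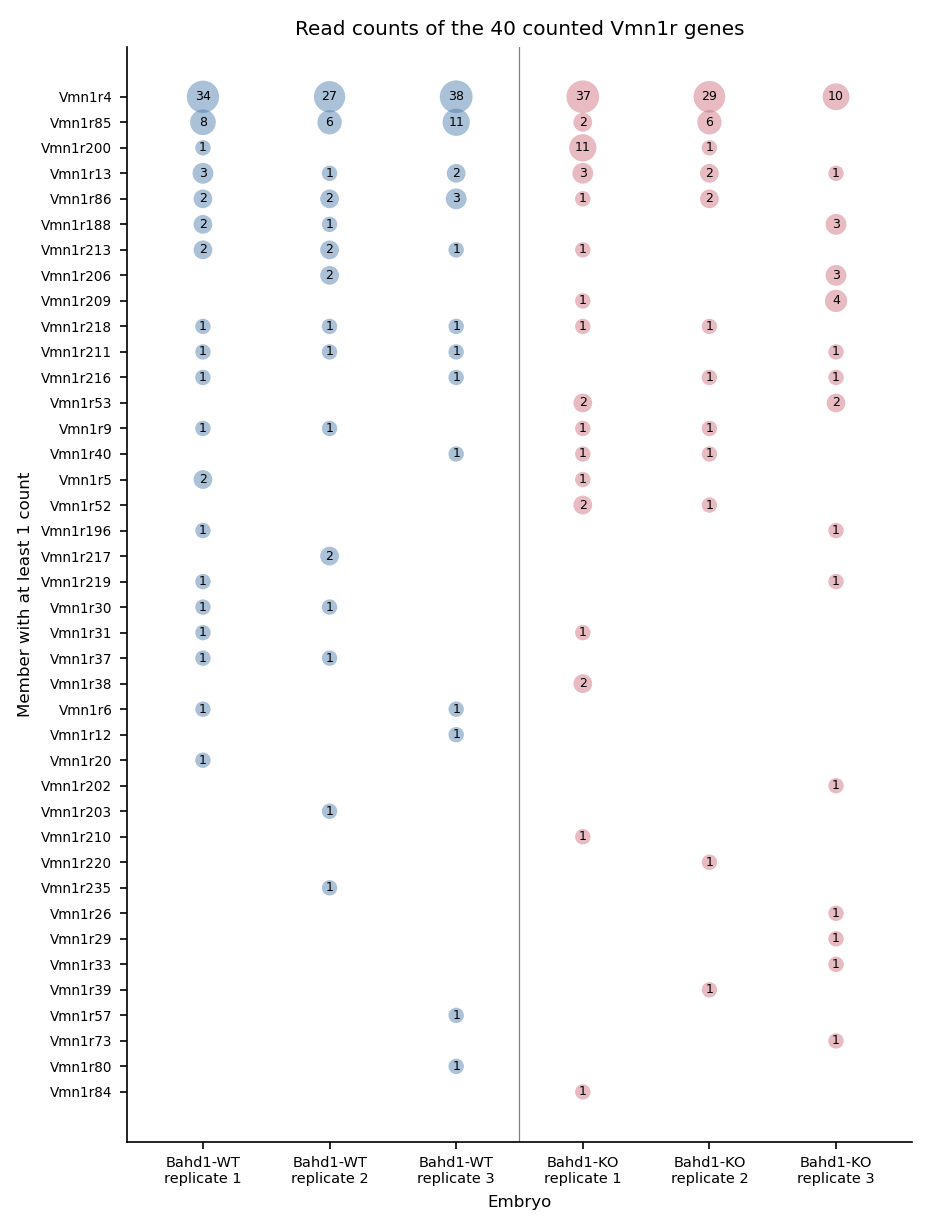
Read counts of each counted Vmn1r gene (rows, ordered by summed count) in each embryo (columns); the area of a circle grows with the log2 of the count, which is printed in it, and no circle means 0. Vmn1r4 leads with 10 to 38 counts per embryo, and most other rows hold 1 or 2 counts in a few embryos of either genotype.

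The share of the family that was counted did not separate the genotypes. At least 1 count was found for 17, 12 and 15 members in the Bahd1-KO embryos, compared with 19, 15 and 13 members in their Bahd1-WT counterparts. The share averaged 7.09% ± 1.22 in Bahd1-KO against 7.57% ± 1.48 in Bahd1-WT (SD, n = 3 each), and the values of both genotypes overlapped. At least 3 counts were reached by 3, 2 and 4 members in Bahd1-KO and by 3, 2 and 3 in Bahd1-WT. At least 10 counts were reached by 2, 1 and 1 members in Bahd1-KO and by 1, 1 and 2 in Bahd1-WT. Bahd1-KO replicate 3 was among the embryos in the middle of the range for any count, and without it the difference between the mean shares was -0.56 percentage points against -0.48 with it. These shares depend on depth, and the Bahd1-KO libraries (61.7 to 78.9 in units of 1e6 counts) were all smaller than the Bahd1-WT libraries (81.6 to 91.8). With all embryos thinned to the smallest total, the share with any count averaged 6.46% ± 1.62 in Bahd1-KO against 5.98% ± 1.13 in Bahd1-WT.

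The summed level of the family was highest in Bahd1-KO replicate 1 under each of 3 scalings, while the place of Bahd1-KO replicate 3 moved with the scaling. All members together reached 1.12, 0.615 and 0.405 CPM in Bahd1-KO, compared with 0.708, 0.613 and 0.690 CPM in Bahd1-WT. Bahd1-KO replicate 3 was thus lowest per total count, but it reached 0.593 CPM with TMM factors, where Bahd1-KO replicate 2 was lowest at 0.557 CPM. Per 1e6 counts of protein-coding genes it reached 0.758, the next highest value after Bahd1-KO replicate 1. The means were 0.713 ± 0.366 CPM in Bahd1-KO against 0.670 ± 0.0506 CPM in Bahd1-WT (SD, n = 3 each). The difference was smaller than the spread within Bahd1-KO, and the Bahd1-WT embryos lay inside the Bahd1-KO range. In bulk brain RNA, fewer cells that transcribe a receptor and less receptor RNA per cell cannot be told apart. With Vmn1r4 set aside, the other 206 members reached 0.344 ± 0.152 CPM in Bahd1-KO against 0.298 ± 0.0348 CPM in Bahd1-WT. Without Bahd1-KO replicate 3 the difference between the mean summed levels was 0.196 CPM against 0.0422 CPM with it, and on all embryos it was 0.111 with TMM factors and 0.161 per protein-coding counts.

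**Figure D2:**
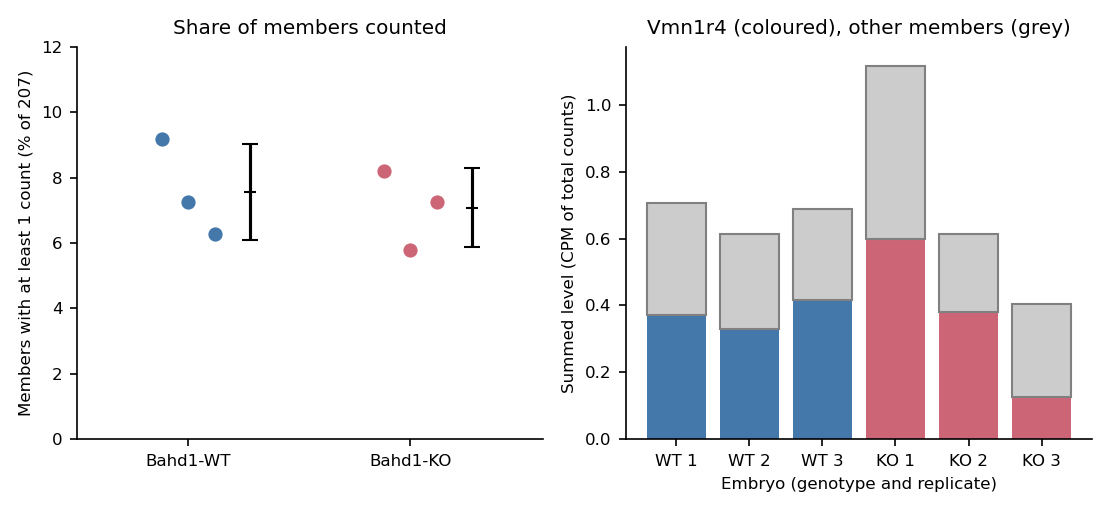
Left, share of the 207 Vmn1r genes with at least 1 count in each embryo (points) with the mean ± SD of 3 embryos per genotype (bar); right, summed level of the family in CPM of total counts per embryo, split into Vmn1r4 (coloured) and the other members (grey). The shares overlap between genotypes at 5.80 to 9.18%, and the summed level ranges on this scale from 0.405 CPM in Bahd1-KO replicate 3 to 1.12 CPM in Bahd1-KO replicate 1.

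The data were then searched for members that left silence in Bahd1-KO. At 0 in all 3 Bahd1-WT embryos and counted in at least 1 Bahd1-KO embryo were 13 members (6.28%), where 4.96% of all genes in the table did the same. The opposite pattern, at 0 in all Bahd1-KO embryos and counted in Bahd1-WT, was seen in 10 members (4.83%), against 4.43% of all genes. The Bahd1-KO libraries together held 217 and the Bahd1-WT libraries 265 in units of 1e6 counts. The 13 members shared 23 counts with a highest value of 4, and the 10 members shared 14 counts with a highest value of 2. When counts in at least 2 embryos were asked for, 3 members remained on each side (1.45% each), against 0.961% and 1.08% of all genes. Neither side kept a member when counts in all 3 embryos or a summed count of at least 10 were asked for. Over all genes, 0.151% were counted in all 3 Bahd1-KO embryos and 0 in Bahd1-WT and 0.212% showed the mirror, while 0.273% and 0.0186% reached the summed count.

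The 3 members counted in at least 2 Bahd1-KO embryos alone were Vmn1r209 on chromosome 13 and Vmn1r52 and Vmn1r53 of the same cluster on chromosome 6. Vmn1r209 had 1, 0 and 4 counts in the knockouts. Vmn1r53 had 2, 0 and 2 counts, and Vmn1r52 had 2, 1 and 0. All 3 were at 0 in every Bahd1-WT embryo, and every value but the 4 counts of Vmn1r209 lay under the limit of 3 counts. On the opposite side, Vmn1r30 and Vmn1r37 had 1 count each in Bahd1-WT replicates 1 and 2, and Vmn1r6 had 1 count each in Bahd1-WT replicates 1 and 3. Without Bahd1-KO replicate 3, the members that were silent in Bahd1-WT and counted in Bahd1-KO fell from 13 to 8, and the mirror count rose from 10 to 15. Leaving out a knockout cannot raise the first count or lower the mirror, so both directions were set in advance. The share of all genes without this embryo is not given here, so these shifts say nothing particular of the members.

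Only 5 members had a summed count of at least 10 and could enter the test of genotype. Vmn1r86 and Vmn1r13 passed this minimum narrowly with sums of 10 and 12, whereas Vmn1r188 and Vmn1r213 came nearest below it with 6 each. In the quasi-likelihood test of edgeR, 0 of the 5 passed the adjusted threshold of 0.05, which 0.00404% of the 24739 genes tested did, a share made up by Bahd1. Without Bahd1-KO replicate 3 this background was 0.0171%, and again 0 of the 5 passed. DESeq2 called none of them either, against 0.0334% of the genes to which it gave an adjusted p. At an unadjusted p under 0.05, 0 of the 5 differed in either tool on all 6 embryos. Of all genes tested, 4.67% did in edgeR and 5.12% in DESeq2. Without Bahd1-KO replicate 3, 1 of the 5, Vmn1r200, fell under it in both tools. So did 345 of 23334 genes in edgeR and 169 in DESeq2. Both genotypes overlapped for every one of the 5, and the share of genes without overlap was 6.06%. A member could reach the minimum through a single embryo, so that this count is no measure of the family. Even Bahd1, with a log2 fold change of -8.40, passed on all 6 embryos only at an adjusted p of 0.0462 (edgeR). Smaller changes in the 5 members could thus go uncalled.

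The start of the coding sequence of each of the 5 members is shown to let the reader see how far they differ from each other. These are the first 65 coding bases, the length of 1 sequencing read, with the start codon in capitals, each on the strand of its gene (GRCm38). Vmn1r4 is read from chr6:56956513-56956577 (forward), Vmn1r13 from chr6:57209858-57209922 (forward), Vmn1r85 from chr7:13085151-13085215 (reverse), Vmn1r86 from chr7:13102883-13102947 (reverse) and Vmn1r200 from chr13:22395029-22395093 (forward).
Vmn1r4: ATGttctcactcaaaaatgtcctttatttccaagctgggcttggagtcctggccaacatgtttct
Vmn1r13: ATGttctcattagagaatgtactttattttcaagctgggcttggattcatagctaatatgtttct
Vmn1r85: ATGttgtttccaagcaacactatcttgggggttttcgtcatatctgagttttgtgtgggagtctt
Vmn1r86: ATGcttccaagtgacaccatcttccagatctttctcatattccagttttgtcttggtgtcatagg
Vmn1r200: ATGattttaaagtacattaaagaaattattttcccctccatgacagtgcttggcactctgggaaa
Over the whole coding sequence, Vmn1r4 and Vmn1r13 were 83.6% identical and Vmn1r85 and Vmn1r86 69.0%, and the lowest identity among the 10 pairs was 49.6%.

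Vmn1r4 (ENSMUSG00000071893) was the most counted member by far. It lies at one end of a cluster on chromosome 6, from 56924015 to 56958100 on the forward strand. The knockouts gave 37, 29 and 10 counts and the wild types 34, 27 and 38. Its level averaged 0.368 ± 0.237 CPM in Bahd1-KO against 0.373 ± 0.0427 CPM in Bahd1-WT (SD, n = 3 each), with Bahd1-KO replicate 3 lowest and Bahd1-KO replicate 1 highest of all embryos. On the log2 scale the fold change came to 0.08 (SE 0.543, adjusted p = 0.966, edgeR), and it turned to -0.02 when total counts alone set the scale. Without Bahd1-KO replicate 3 it was 0.36, and without Bahd1-KO replicate 1 it was -0.37. Per kb of annotated exon, the mean level over the 6 embryos was 0.0991 CPM for Vmn1r4, against 0.00924 CPM for Vmn1r85, the member next in this order, and 0.0775 CPM for Omp, the gene of olfactory marker protein in mature olfactory and vomeronasal neurons.

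Of all members with a measured distance, Vmn1r4 lies closest to a gene with at least 1 CPM. Its first annotated base lies 83 bp from that of Nt5c3, a gene for a cytosolic nucleotidase on the opposite strand that begins at 56923932 and averaged 63.6 CPM. Of 4 annotated transcripts of Vmn1r4, one with a retained intron and a protein-coding one start 83 and 90 bp from Nt5c3. The other two start 25.4 and 32.5 kb away, the last close to the coding exon. The counts are sums over all exons and do not tell which transcripts were read. Over all 40 counted members the median distance to the nearest gene with at least 1 CPM was 172 kb, against 299 kb for the members at 0. The members at 0 include a cluster of 64 on chromosome 7 with a median of 957 kb, and for the 95 others at 0 the median was 184 kb, close to that of the counted members.

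**Figure D3:**
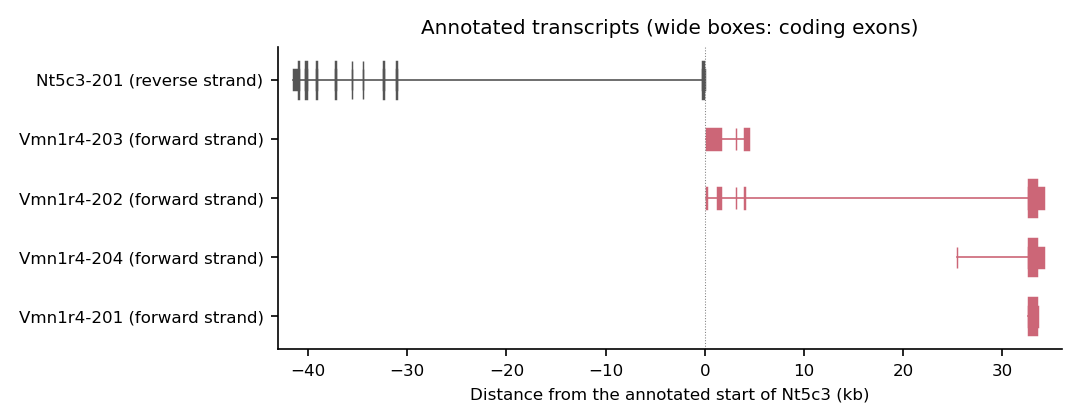
Annotated transcripts of Vmn1r4 (red) and 1 transcript of its neighbour Nt5c3 (grey) by distance in kb from the annotated start of Nt5c3; narrow boxes are non-coding exons, wide boxes coding exons and lines introns. Transcripts of Vmn1r4 start 83 and 90 bp, 25.4 kb and 32.5 kb from Nt5c3, and the coding exon lies at the far end.

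Nt5c3 and Vmn1r4 were low in the same embryo, Bahd1-KO replicate 3. The summed level of the listed markers of brain neurons was also low in it. For Nt5c3 the knockouts gave 5467, 5759 and 1413 counts and the wild types 6726, 4770 and 6235. For each 1000 counts of Nt5c3 there were 6.77, 5.04 and 7.08 counts of Vmn1r4 in Bahd1-KO, compared with 5.06, 5.66 and 6.09 in Bahd1-WT. Bahd1-KO replicate 3, with the fewest counts of both genes, had the highest ratio, which rests on 10 counts of Vmn1r4. This ratio was chosen after the values had been seen, and any link between both genes was not tested. On the other side, Vmn1r5, which follows Vmn1r4 at 12.2 kb on the same strand, had 3 counts in all, and Gm44049, a gene model inside Vmn1r4 on the reverse strand, had none. Gm3793, a gene model of unknown coding status 17.4 kb before Vmn1r4, had between 0 and 12 counts per embryo.

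Vmn1r85 (ENSMUSG00000070817) and Vmn1r86 (ENSMUSG00000070816) are neighbours on the reverse strand of chromosome 7, from 13083313 to 13095173 and from 13097531 to 13119917. Vmn1r85 had 2, 6 and 0 counts in the knockouts, compared with 8, 6 and 11 in the wild types. Both genotypes met at 6 counts, although the level in Bahd1-KO, 0.0370 ± 0.0394 CPM, lay below the 0.0937 ± 0.0242 CPM of Bahd1-WT. The log2 fold change of -1.24 (SE 0.934) did not pass the test (adjusted p = 0.696, edgeR), and it was -0.73 without Bahd1-KO replicate 3 and -2.35 (adjusted p = 0.278) without Bahd1-KO replicate 2. For Vmn1r86 the knockouts gave 1, 2 and 0 counts and the wild types 2, 2 and 3, a fold change of -0.74 in log2 units (SE 0.934, adjusted p = 0.789, edgeR) that came to -0.29 without Bahd1-KO replicate 3. Both members had their only 0 in Bahd1-KO replicate 3. The nearest gene with at least 1 CPM, the zinc finger gene Mzf1, stands 28.5 kb beyond Vmn1r85, followed by Ube2m, a gene for an enzyme of neddylation, and 2 gene models that overlap Vmn1r85 on the forward strand, Gm45436 and Gm4270, were at 0.

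Vmn1r200 (ENSMUSG00000101073), which occupies 22390373 to 22400052 of chromosome 13 (forward strand), was counted mainly in 1 embryo. Its counts were 11, 1 and 0 in the knockouts, compared with 1, 0 and 0 in the wild types. Bahd1-KO replicate 1 therefore held 11 of its 13 counts, and the other 5 embryos had 0 or 1. With a log2 fold change of 3.61 (SE 1.69), the test gave an unadjusted p of 0.0686 and an adjusted p of 0.696 (edgeR). With 1 count in Bahd1-WT, this fitted value depends on the prior count of the model and is no bound. Without Bahd1-KO replicate 3 the log2 fold change was 4.10 (adjusted p = 0.981, edgeR), and without Bahd1-KO replicate 1 the 2 counts left were too few for the test. The genes on both sides, Vmn1r199 and the pseudogenes Vmn1r-ps102, Vmn1r-ps103 and Vmn1r-ps104, were at 0 in every embryo.

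Vmn1r13 (ENSMUSG00000064259), in the same chromosome 6 cluster as Vmn1r4, lies from 57203290 to 57214799 on the forward strand. Its counts were 3, 2 and 1 in the knockouts, compared with 3, 1 and 2 in the wild types. The same values thus recurred in both genotypes, and the fold change was 0.46 in log2 units (SE 0.785, adjusted p = 0.845, edgeR), or 0.64 without Bahd1-KO replicate 3. Per kb of exon the mean level over all embryos fell from 0.00924 CPM for Vmn1r85 to 0.00552 CPM for Vmn1r200, 0.00484 CPM for Vmn1r13 and 0.00311 CPM for Vmn1r86.

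The counted members were spread unevenly over the genome. A position in the annotation was found for 199 members, and the 8 without one had no count. Members within 1 Mb of each other were grouped into clusters. The cluster of chromosome 13, from Vmn1r188 to Vmn1r223, had 15 of 35 members counted (58 counts, 34 in Bahd1-KO and 24 in Bahd1-WT, or 22 and 23 without Vmn1r200). On chromosome 6, the cluster that opens with Vmn1r4 had 11 of 28 members counted, with 88 counts in Bahd1-KO and 116 in Bahd1-WT. That from Vmn1r32 to Vmn1r39 had 4 of 8 (4 counts in Bahd1-KO and 2 in Bahd1-WT). That from Vmn1r40 to Vmn1r54 had 3 of 15 (9 counts in Bahd1-KO and 1 in Bahd1-WT). On chromosome 7, the cluster from Vmn1r66 to Vmn1r89 had 5 of 23 members counted, with 13 counts in Bahd1-KO and 33 in Bahd1-WT, most of them on Vmn1r85 and Vmn1r86. The 13 members on chromosome 17 gave a single count, on Vmn1r235.

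The largest cluster was silent throughout. All 64 members from Vmn1r91 to Vmn1r181, on chromosome 7 between 20099680 and 23988139, had 0 counts in all 6 embryos, whereas 40 of the 135 other positioned members (29.6%) were counted. This cluster also differed in its annotation and its sequence. The median annotated exon length of its members was 924 bp, hardly more than the coding sequence, and 3986 bp for the others. In 48 of its 64 members at least 50% of all 65-base words of the transcripts also occurred in another gene, read on either strand. In 18 members all of them did, so that a read could not be assigned to 1 gene by sequence without regard to strand. Of its 16 members with less than 50% shared words, 6 had less than 10%, with a median exon length of 5018 bp, and these were at 0 as well. Among the other members with less than 10% shared words, 32 of 100 were counted.

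Near-identical copies from this cluster are shown for that reason. The first 65 coding bases of Vmn1r130 (chr7:21511780-21511844), Vmn1r137 (chr7:21994587-21994651) and Vmn1r165 (chr7:23217332-23217396) are set beside those of Vmn1r95 (chr7:20193710-20193774), all on the forward strand (GRCm38), and the capital marks the base at which Vmn1r95 differs from the other copies.
Vmn1r130: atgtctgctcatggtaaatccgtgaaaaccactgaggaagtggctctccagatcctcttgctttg
Vmn1r137: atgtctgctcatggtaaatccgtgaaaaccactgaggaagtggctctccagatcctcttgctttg
Vmn1r165: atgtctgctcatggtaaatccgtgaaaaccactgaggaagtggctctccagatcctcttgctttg
Vmn1r95: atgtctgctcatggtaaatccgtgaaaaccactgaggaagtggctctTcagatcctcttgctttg
Vmn1r130, Vmn1r137 and Vmn1r165 were identical over all 921 coding bases, Vmn1r95 differed from Vmn1r130 at 4 of them, and Vmn1r107 and Vmn1r155 at 1. In all, 16 of 198 members compared fell into 7 groups of identical coding sequence. These groups held 4 counts, all under the symbol Vmn1r216, and their values are uncertain. The 2 Vmn1r216 genes are no separate copies, since all 1059 exon bases of the shorter lie in exons of the longer on the same strand.

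Exon length and shared sequence moved with counting over the whole family. Where less than 10% of the 65-base words were shared, 32 of 106 members were counted, against 7 of 37 at 10 to under 50% and 1 of 55 at 50% or more. Members with under 1200 bp of annotated exon were counted in 1 of 61 cases, those with 1200 to under 4000 bp in 15 of 64 and those with 4000 bp or more in 24 of 74. Among members with less than 10% shared words, these bands had 1 of 5, 12 of 41 and 19 of 60 members counted, so that the steps between the bands were smaller there. The median exon length was 5440 bp for counted members and 2523 bp for those at 0, whereas the median coding length hardly differed (922 and 921 bp). Short exons and shared words occurred mostly in the same members, and no test of either was made. In all, 10 members share exon bases with another gene on the same strand, where reads over both genes may go uncounted. The 2 Vmn1r216 genes are among them, and 1 of these is the counted member at 50% or more shared words. Of its 10213 exon bases, 2006 overlap another gene on the same strand, whereas shared words were sought on both strands.

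**Figure D4:**
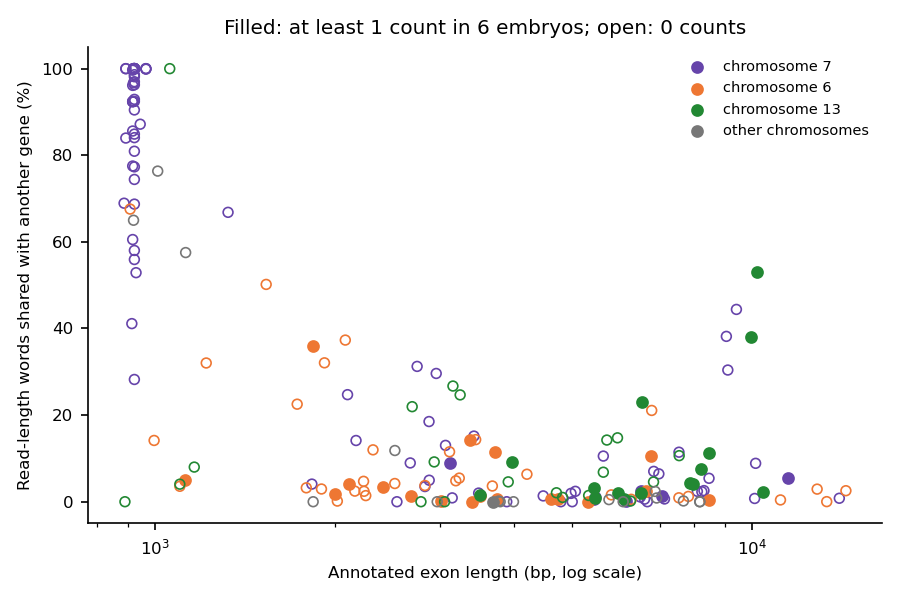
Annotated exon length in bp (horizontal, log scale) and percent of 65-base words shared with another gene (vertical) for 198 Vmn1r genes; filled points were counted in at least 1 of 6 embryos, open points were at 0, and colours give the chromosome. Filled points sit at low sharing and mostly above 1200 bp, and the stack of open chromosome 7 points near 924 bp reaches 100%.

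Other chemoreceptor families were also sparsely counted. Of the numbered Vmn2r genes, the other vomeronasal receptor family, 19 of 123 (15.4%) were counted and 7 had at least 10 counts, led by Vmn2r1 with 413. Of the numbered Olfr genes, which encode odorant receptors, 250 of 1107 (22.6%) were counted and 34 had at least 10 counts. The Vmn1r pseudogenes were counted in 7 of 115 cases (6.09%), none with at least 10 counts. Trace amine receptor genes (Taar) were counted in 6 of 15 cases, bitter taste receptor genes (Tas2r) in 5 of 35, and Fpr-rs genes, the formyl peptide receptors of the vomeronasal organ, in 0 of 4. Vmn2r genes summed to 2.12 ± 0.898 CPM in Bahd1-KO against 1.74 ± 0.369 CPM in Bahd1-WT (SD, n = 3 each), or 2.45 CPM in Bahd1-KO without replicate 3, and both genotypes overlapped, as for the Vmn1r genes.

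The genes around the receptors in a vomeronasal neuron were examined in a list of 47 genes for signal transduction, receptor trafficking, transcription factors, axons and neuronal identity. Of these, 40 had enough counts for the test and 0 were called, where 0.00404% of all genes tested were. At an unadjusted p under 0.05, 0 of the 40 differed in edgeR and 1 in DESeq2, against 4.67% and 5.12% of all genes tested. By the sign of the log2 fold change 15 were higher and 25 lower in Bahd1-KO, with a median of -0.30 against 0.06 over all genes tested, and the median was -0.14 without Bahd1-KO replicate 3. The genotypes did not overlap for 2 genes, both lower in Bahd1-KO, Cnga4, a channel subunit of olfactory neurons, and Ncam1, a cell adhesion molecule of most neurons. These 2 are 5.0% of the 40 tested, where 6.06% of all genes tested did not overlap. Neither passed the test (adjusted p = 0.706 and 0.718, edgeR), and both are named after their values were seen.

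Defining genes of the sensory neurons were few in counts or could not be read. Omp had 8, 10 and 18 counts in the knockouts, compared with 15, 13 and 17 in the wild types, with overlapping genotypes (adjusted p = 0.888, edgeR). Trpc2, the ion channel of vomeronasal transduction, was listed at 0 in every embryo, but 100% of its exon bases lie within exons of Xntrpc on the same strand, so that its 0 checks nothing. Xntrpc had 25, 32 and 12 counts in the knockouts, compared with 25, 23 and 59 in the wild types. It shares 91.8% of its own exon bases with other genes on that strand, where reads may go uncounted as well. The non-classical class I genes H2-M1, H2-M10.1, H2-M10.2, H2-M10.3 and H2-M10.4, known from basal vomeronasal neurons, were at 0 in every embryo, whereas H2-M9 had 4 counts in Bahd1-KO replicate 3 and 0 in the others. Of the 13 listed markers of vomeronasal and olfactory sensory neurons, 12 were counted, with a summed level of 3.32, 5.21 and 8.40 CPM in Bahd1-KO, compared with 4.54 to 4.89 CPM in Bahd1-WT. Of 11 listed markers of the surrounding nasal epithelium, 5 were counted, at 0.127 to 0.628 CPM in Bahd1-KO and 0.534 to 0.723 CPM in Bahd1-WT, and Cyp2g1, Obp1b, Obp2a, Bpifb9b, Lcn3 and Lcn4 were at 0. The part of nasal tissue in the receptor counts was not tested.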

How the data were processed

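The authors deposited a table of raw read counts, with genes as rows, embryos as columns and no normalization. Per the study's methods and processing notes, stranded libraries were read as 65-base single-end reads, trimmed with cutadapt 1.11, aligned to GRCm38 and counted over exons with featureCounts 1.4.6-p3, which by default leaves out reads shared by several genes. STAR 2.5.0a and TopHat2 are both named for alignment. The supplementary methods also name a paired-end run on another instrument, and the 65-base words used here rest on the single-end description.

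Embryos were grouped by the labels. They are the replicates behind every p-value. Genes with at least 10 counts in sum (24739) were tested for genotype with the two-sided quasi-likelihood test of edgeR 4.0.16 (R 4.3.3, TMM factors), with Benjamini-Hochberg adjustment over the whole table, and DESeq2 1.42.0 was the alternative. The script was tested on simulated data with known changes, placed in genes above 1 CPM and without an outlying embryo. No member reached this level, so this says nothing of changes in the members. Levels are CPM of total counts. Positions and exons came from GENCODE M21 (GRCm38), as did the transcripts whose 65-base words were compared between genes on both strands. It placed 99.8% of the table's genes. No 2 libraries of a genotype agreed within sampling noise.

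Named by rule were Bahd1, members called or with at least 10 counts, members counted in at least 2 embryos of 1 genotype alone, those beside the count minimum, Trpc2, Omp and the neighbours of the 3 leading members. Members and lists were chosen with earlier results of these data known. Promoter windows were not used here.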

Additional observations from a re-analysis of the deposited data

How the results depend on the processing

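In all, 118 of 146 alternative values kept their direction and their side of the threshold or moved less than the spread between embryos. No member, Vmn1r90 being left out, and no gene of the vomeronasal list was called under any of 13 alternatives. A member that was not tested could not be called. The alternatives tested 1 member with the expression filter of edgeR, 2 without Bahd1-KO replicate 1, 3 without Bahd1-WT replicate 1, 40 with no filter and 4 or 5 in the others. Over all genes, edgeR called 1 gene, DESeq2 called 8 and, in an alternative chosen after seeing the data, 11 without Bahd1-KO replicate 3. With the replicate number as a block, 0 genes passed (517 at an unadjusted p under 0.05), Bahd1 stood at -8.49 (adjusted p = 0.229, edgeR) and Vmn1r4 turned to -0.035. Deviations of same-numbered embryos correlated at 0.125, 0.176 and -0.088, and those of differently numbered embryos at -0.362 to 0.250. With 3 embryos per genotype, these values cannot show whether equal numbers share a litter or batch. Leaving out each embryo in turn gave 0 to 4 called genes (4 without Bahd1-KO replicate 3), -8.78 to -8.01 for Bahd1, which passed only without Bahd1-KO replicate 3, and -0.37 (without Bahd1-KO replicate 1) to 0.36 for Vmn1r4, which was also negative without Bahd1-WT replicate 2 (-0.018) and with total counts as the scale (-0.022). Over all genes the median log2 change was 0.06 with TMM factors, 0.07 with DESeq2 size factors and -0.11 with total counts. Vmn1r200 kept its sign (3.13 to 5.25, adjusted p 0.241 to 0.9998) in the fits that tested it. Each of these fits held Bahd1-KO replicate 1, with 11 of its 13 counts, so they cannot show that the sign is stable. Vmn1r200 fell under an unadjusted p of 0.05 (edgeR) without Bahd1-KO replicate 2 or 3. In these fits 4878 of 24149 and 345 of 23334 genes did so. Vmn1r85 ranged from -2.35 to -0.73. The cause of these shifts was not tested.

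The difference in the share of members counted, Bahd1-KO minus Bahd1-WT, was -0.48 percentage points, and -1.13 to 0.32 with an embryo left out. It was 0.48 when embryos were thinned to the smallest total and 1.25 when they were thinned to the smallest protein-coding total. The difference in summed level was 0.0422 CPM, 0.111 with TMM factors, 0.161 per protein-coding counts, -0.160 to 0.196 with an embryo left out, and 1.28 with Vmn1r90 put back. Members silent in Bahd1-WT numbered 13, or 3, 0 and 0 when counted in 2 embryos, in 3 embryos or with a sum of 10, and 8 to 18 with an embryo left out. The mirror numbered 10, or 3, 0 and 0, and 7 to 15. Leaving out an embryo or asking for more counts moves these numbers in a direction set in advance. With most members at 0 to 2 counts, depth limits what can be seen of any single member to changes above a few counts.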
